A study of Homo sapiens with 4 samples.

Results

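The cytosolic ribosome is built from a large (60S) and a small (40S) subunit, and the genes for its proteins were followed here in 4 RNA-seq libraries of HaCaT cells, an established line of immortalised human keratinocytes. Members were the gene rows whose symbol follows the RPL or RPS pattern, with the stalk proteins RPLP0, RPLP1 and RPLP2, with RPSA, and with the paralogs named by an added L. This gave 83 of the 29209 listed genes, of which 51 belong to the large and 32 to the small subunit. The 2 groups were a line given TCN1 by lentivirus (TCN1, 2 libraries) and a negative control line (NC, 2 libraries). TCN1 encodes transcobalamin 1, a secreted vitamin B12 carrier. All libraries came from polyA RNA of cells in serum-containing DMEM with antibiotics. The labels do not state the promoter of the construct, what the control line received, or whether a line is 1 clone. Nor do they say that replicate libraries were grown apart, and p-values here cover only the spread among these 4 libraries, which may be technical.

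Ribosomal proteins wrap the ribosomal RNA, and cells need nearly all of them in equal numbers, so their messenger RNAs are among the most abundant of a growing cell. Most of these messages begin with a cytosine followed by a run of pyrimidines, the 5′ terminal oligopyrimidine (TOP) motif, through which the kinase complex mTORC1 and the RNA-binding protein LARP1 control their translation and stability. A few members have a paralog that can take their place in the ribosome, and several have duties outside it, such as the binding of MDM2 by RPL5 and RPL11 in p53 control.

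To show the feature by which this family is best known, and how paralogs can differ in it, the RefSeq (GRCh38.p14) sequence around the annotated RNA start is printed for the 4 paralog pairs with both starts in the table, for RPL7L1, and for the 3 members with positive differences at an unadjusted p under 0.05. Each window holds the 10 bases before the start and the first 20 bases of the RNA, 5′ to 3′ on the gene's own strand. Capitals mark a run of C and T that begins with C at the start itself and holds at least 5 bases.
RPL22 (chr1:6199576-6199605, minus strand): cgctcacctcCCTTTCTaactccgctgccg
RPL22L1 (chr3:170870176-170870205, minus strand): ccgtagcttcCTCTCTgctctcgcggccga
RPL26 (chr17:8383174-8383203, minus strand): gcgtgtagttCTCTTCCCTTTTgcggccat
RPL26L1 (chr5:172958719-172958748, plus strand): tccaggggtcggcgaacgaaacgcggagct
RPL36A (chrX:101391001-101391030, plus strand): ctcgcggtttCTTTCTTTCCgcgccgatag
RPL36AL (chr14:49620607-49620636, minus strand): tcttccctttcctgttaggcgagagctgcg
RPS27 (chr1:153990752-153990781, plus strand): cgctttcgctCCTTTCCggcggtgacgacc
RPS27L (chr15:63157458-63157487, minus strand): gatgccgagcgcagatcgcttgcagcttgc
RPL7L1 (chr6:42879606-42879635, plus strand): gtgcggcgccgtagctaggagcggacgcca
RPL13A (chr19:49487598-49487627, plus strand): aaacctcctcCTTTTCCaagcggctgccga
RPS28 (chr19:8321486-8321515, plus strand): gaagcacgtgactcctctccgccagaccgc
RPS29 (chr14:49598691-49598720, minus strand): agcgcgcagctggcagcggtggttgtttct

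A start was matched for 67 of the 83 members, and 47 of these (70.1%) carried such a run on the sense strand. Among the other genes tested it was carried by 721 of 10652 (6.77%). Counted by single starts, it stood at 47 of the members' 83 listed starts (56.6%), against 4.07% of all 35116 starts of the table. Of the pairs printed, RPL26, RPL36A and RPS27 had the run while RPL26L1, RPL36AL and RPS27L did not, and RPL22 and RPL22L1 both had it. A start is a single annotated base, and the absence of a run says only that these letters are not at that base. RPS28, for example, has pyrimidines just downstream of its annotated start.

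Library totals were 19973550 and 11593377 counts for NC, and 16586500 and 14756073 for TCN1. TCN1 itself had 50 and 17 counts in the NC libraries and 1700 and 1253 in the TCN1 libraries, a log2 fold change of 5.48 ± 0.20 (SE; edgeR adjusted p = 2.4e-06), so the libraries followed their labels. The keratinocyte markers were all listed, with summed levels of 6906 to 8197 FPKM (fragments per kilobase, adjusted for library size) in the 4 libraries. KRT1 and KRT10, keratins of differentiating keratinocytes, were called higher in TCN1, at 0.77 and 0.84 on the log2 scale (edgeR adjusted p = 0.007 and 0.004). Summed markers of fibroblasts, melanocytes, endothelial and immune cells stayed between 0.877 and 2.99 FPKM, most of it from COL1A1, PMEL, VWF and CD14, while PTPRC, CD68, DCN and DCT were at or near 0. The share of counts on mitochondrially encoded genes was 5.33% and 5.13% in NC and 6.04% and 5.65% in TCN1. Scaling without these genes and without the members left 0 members called and a median log2 fold change of 0.03.

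No ribosomal protein gene was called higher or lower in TCN1 at an edgeR adjusted p under 0.05, with 79 of the 83 members passing the filter on low counts. Over all 15113 genes tested, 0.496% were called (0.285% higher and 0.212% lower). The smallest adjusted p of a member was 0.142, that of RPL7L1. At an unadjusted p under 0.05 there were 3 members with positive differences (RPS29, RPS28 and RPL13A) and 4 with negative ones (RPL7L1, RPL22L1, RPL26 and RPL36A), beside 6.00% and 6.81% of all genes tested. DESeq2 called 0 members, with 3 positive and 2 negative at an unadjusted p under 0.05, and limma on log2(FPKM + 0.5) called 0, with 0 positive and 4 negative. Without a filter on low counts, edgeR called RPS29 higher and RPL22L1 lower, beside 200 genes higher and 275 lower of 29209. The call also depended on single libraries: without NC replicate 1, RPS27, RPS29 and RPL37A were called higher, and without NC replicate 2 or without TCN1 replicate 1, RPL22L1 was called lower, where the lone library left in a group is assumed to vary like the other group. These fits called more of all genes as well, with 102 to 195 higher and 103 to 124 lower of 15113 against 43 and 32 with every library. In bulk RNA, fewer cells of a type and less RNA per cell cannot be told apart.

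The members' differences lay close to 0. Their median log2 fold change was 0.03 (0.0016 over all genes tested), with 48 positive and 31 negative. Of the 79, 62 (78.5%) lay within 0.1 log2 of no difference, beside 32.6% of all genes tested, and the median standard error was 0.10 for members and 0.16 for all genes. For 48 members the 95% interval stayed inside a 1.25-fold difference in either direction, and for 68 inside a 1.5-fold difference, so for the remaining 11 a larger difference was within the error. Without NC replicate 1 the median was 0.11, and without NC replicate 2 it was -0.07, so its sign changed with a single library.

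**Figure D1:**
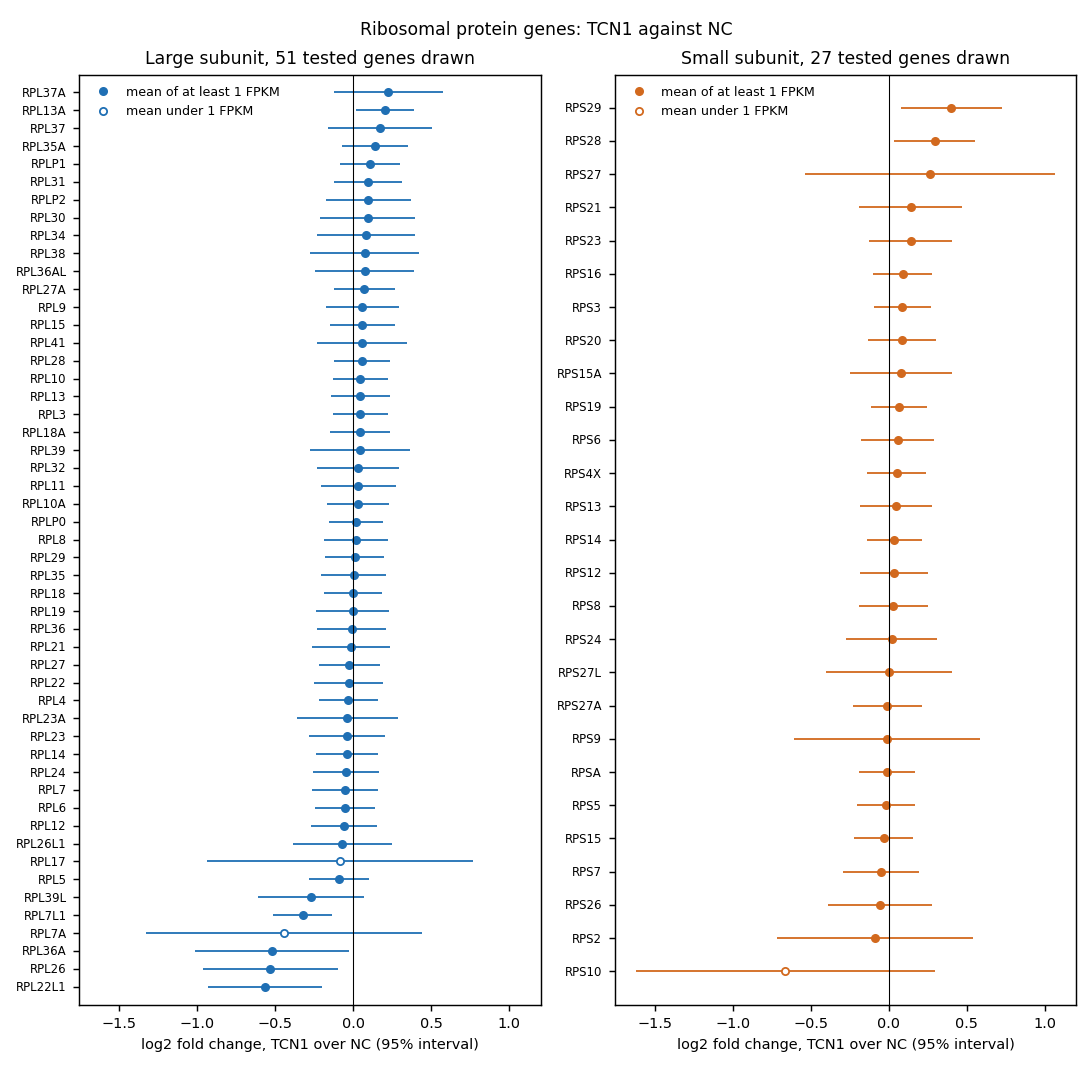
Log2 fold change of TCN1 over NC (x axis) for 78 tested members of the large and the small subunit, with 95% intervals from edgeR; open circles are members with a mean under 1 FPKM. Most points sit within 0.1 of 0. Of the members at an edgeR unadjusted p under 0.05, RPL22L1, RPL26, RPL36A and RPL7L1 lie to the left and RPS29, RPS28 and RPL13A to the right. RPS10 (-0.66, the leftmost) and RPL7A (-0.44) lie further left than RPL7L1, and RPS27 (0.27) and RPL37A (0.23) further right than RPL13A, with wider intervals.

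Large and small subunit genes were both centred near 0. The 51 large subunit genes tested had a median log2 fold change of 0.02 (quartiles -0.04 and 0.06), with 29 positive and 22 negative. The 28 small subunit genes tested had a median of 0.04 (quartiles -0.01 and 0.09), with 19 positive and 9 negative. Without NC replicate 2, these medians were -0.10 and -0.05. The groups did not overlap in FPKM for 13 members that were higher in TCN1 (6 large, 7 small; background 21.7% of all genes tested) and for 6 that were lower (all 6 large; background 21.0%), so 60 of the 79 overlapped. Both shares of the members were below the background.

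The balance between the subunits was read per library. The summed level of large subunit genes divided by that of small subunit genes was 1.92 and 2.02 in NC and 1.88 and 1.93 in TCN1, or 1.97 ± 0.07 and 1.91 ± 0.03 (SD, n = 2). The TCN1 libraries lay at the lower end, but TCN1 replicate 2 was above NC replicate 1 (exact two-sided permutation p = 0.667, where 2 against 2 cannot go below 0.33). The family as a whole held 4.14% and 3.71% of all counts in NC and 4.15% and 3.91% in TCN1, or 3.93% ± 0.31 and 4.03% ± 0.17 (SD, n = 2; exact two-sided permutation p = 0.667). The NC libraries spanned nearly the whole range of these shares, with TCN1 replicate 2 between them. Left without NC replicate 1 the difference of TCN1 minus NC was 0.32 percentage points, and without NC replicate 2 it was -0.11.

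Levels of single members spanned several orders of magnitude. The 76 members with a mean of at least 1 FPKM had a median of 142 FPKM (144 for the large and 126 for the small subunit), against 6.54 FPKM over all genes of at least 1 FPKM. Of them 44 exceeded 100 FPKM, 25 were among the 100 highest genes, and 8 lay between 1 and 10 FPKM. These levels depend on the gene lengths in the files, which ran from 639 to 9840 bp with a median of 3188 bp, while the median coding length of the members was 459 bp. RPS29, for example, carried 9840 bp in the files for a coding length of 261 bp.

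**Figure D2:**
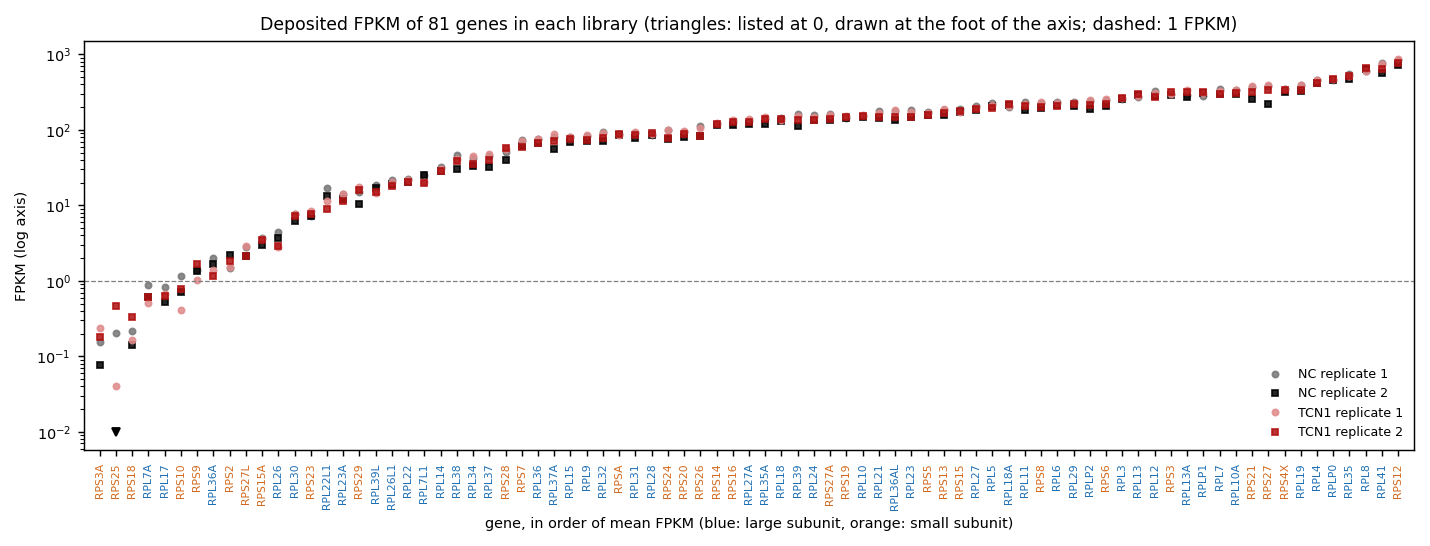
FPKM (y axis, log scale) of 81 genes in each of the 4 libraries, ordered by mean level; gene names are blue for the large and orange for the small subunit. The libraries lie close together for most genes above 10 FPKM and spread for the 6 genes drawn under the dashed line at 1 FPKM.

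The 5 highest members all overlapped or nearly coincided between the groups. RPS12, a protein of the 40S beak, was at 847 and 729 FPKM in NC and 858 and 758 in TCN1 (log2 fold change 0.03 ± 0.10, SE). RPL41, the shortest protein of the ribosome, was at 756 and 565 FPKM in NC and 744 and 633 in TCN1 (0.06 ± 0.13). In both genes replicate 2 was the lower library of each group, and the gap between replicates exceeded that between groups. RPL8, which lies near the peptidyl transferase centre, was at 601 and 644 FPKM in NC and 599 and 665 in TCN1 (0.02 ± 0.09). RPL35, a protein beside the exit tunnel, was at 557 and 471 FPKM in NC and 516 and 515 in TCN1 (0.00 ± 0.09). RPL8 was the exception among these, being higher in replicate 2 of both groups.

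The stalk recruits translation factors to the large subunit, and its base protein RPLP0 is the fifth in level. RPLP0 was at 461 and 464 FPKM in NC and 472 and 468 in TCN1. The 2 groups did not overlap, yet the difference was small, at 0.02 ± 0.08 on the log2 scale with a 95% interval of -0.15 to 0.19. RPLP1, one of the acidic proteins bound to RPLP0, was at 280.0 and 304 FPKM in NC and 310.4 and 320.1 in TCN1 (0.11 ± 0.09). Its partner RPLP2 was at 243 and 188 FPKM in NC and 249 and 213 in TCN1 (0.10 ± 0.12). RPLP1 was higher in both TCN1 libraries, while RPLP2 followed the replicate number, with replicate 2 lower in both groups.

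RPL5 and RPL11 form a particle with 5S ribosomal RNA that can bind and restrain MDM2, the ligase that degrades p53. RPL5 was at 224 and 206 FPKM in NC and 212 and 194 in TCN1 (log2 fold change -0.09 ± 0.09). RPL11 was at 234 and 186 FPKM in NC and 221 and 208 in TCN1 (0.03 ± 0.11). The groups overlapped for both, and NC replicate 2 was the lowest library for RPL11 while TCN1 replicate 2 was the lowest for RPL5.

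Among members of at least 1 FPKM, the 5 lowest values relative to NC were in the large subunit, mostly in paralogs or members with few counts. RPL22L1, the paralog of RPL22, was at 17.0 and 13.2 FPKM in NC and 11.5 and 9.05 in TCN1. Every NC library was above every TCN1 library, and within each group replicate 2 was the lower. This gave -0.57 ± 0.16 on the log2 scale (edgeR adjusted p = 0.183, unadjusted p = 0.0062). It passed the threshold without NC replicate 2 (-0.72, edgeR adjusted p = 0.015) and without TCN1 replicate 1 (-0.74, 0.019), but was at -0.37 (0.526) without NC replicate 1 and at -0.42 (0.389) without TCN1 replicate 2. RPL22 itself was at 22.7 and 20.2 FPKM in NC and 21.8 and 20.3 in TCN1 (-0.03 ± 0.10), with overlapping groups.

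RPL7L1 is related to RPL7, and its yeast counterpart acts in the assembly of the large subunit. It was at 25.2 and 25.5 FPKM in NC and 20.5 and 20.0 in TCN1. The libraries of each group nearly coincided and the groups were apart, at -0.32 ± 0.08 on the log2 scale (edgeR adjusted p = 0.142). Leaving out each library in turn kept the value between -0.34 and -0.30, with edgeR adjusted p-values from 0.250 to 0.368. RPL7 was at 352 and 299 FPKM in NC and 328 and 302 in TCN1 (-0.05 ± 0.09), so the groups overlapped.

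RPL26, which sits near the exit tunnel and also binds the p53 message, was at 4.39 and 3.73 FPKM in NC and 2.78 and 2.87 in TCN1. Both TCN1 libraries were below both NC libraries (log2 fold change -0.53 ± 0.19, edgeR adjusted p = 0.283). Its near-identical paralog RPL26L1 was at 21.7 and 18.9 FPKM in NC and 20.7 and 18.2 in TCN1 (-0.07 ± 0.14), with overlapping groups. RPL36A, a zinc-binding protein near the E site, was at 1.98 and 1.68 FPKM in NC and 1.40 and 1.16 in TCN1, with no overlap (-0.52 ± 0.22, edgeR adjusted p = 0.361). Its paralog RPL36AL stood far above it at 179 and 134 FPKM in NC and 182 and 149 in TCN1 (0.07 ± 0.14). Pseudogene rows that carry the names of RPL26 and RPL36A held more counts than the genes' own rows, and with these rows added the differences were -0.26 ± 0.15 and 0.08 ± 0.15.

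RPL39L, a paralog of the tunnel protein RPL39 best known from testis and tumours, was at 18.5 and 17.1 FPKM in NC and 14.6 and 14.96 in TCN1. The groups did not overlap, with a log2 fold change of -0.27 ± 0.15 (edgeR adjusted p = 0.498). RPL39 was at 164 and 114 FPKM in NC and 152 and 135 in TCN1 (0.04 ± 0.14). RPS27L, the p53-induced paralog of RPS27, was at 2.81 and 2.16 FPKM in NC and 2.87 and 2.14 in TCN1, an estimate of 0.00 ± 0.18. Of the 6 paralogs with an L, RPL22L1, RPL7L1 and RPL39L thus had groups that did not overlap, all lower in TCN1, beside 21.0% of all genes tested, and the other three overlapped.

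The highest values relative to NC came mostly from genes with a short coding sequence. RPS29, a small zinc-binding protein of the 40S head, was at 14.8 and 10.3 FPKM in NC and 17.3 and 16.0 in TCN1. NC replicate 2 was by far the lowest library, and the log2 fold change was 0.40 ± 0.15 (edgeR adjusted p = 0.277). Without NC replicate 1 it was 0.69 (edgeR adjusted p = 0.0012), and without NC replicate 2 it was 0.18 (0.737). RPS28, which lies at the messenger RNA exit, was at 50.6 and 40.1 FPKM in NC and 54.9 and 56.8 in TCN1 (0.29 ± 0.12, edgeR adjusted p = 0.326), and 0.19 ± 0.13 with its pseudogene row added. Without NC replicate 1 the value of RPS28 was 0.47, and without NC replicate 2 it was 0.15. RPS27, another zinc-binding protein, was at 386 and 219 FPKM in NC and 395 and 336 in TCN1 (0.27 ± 0.29), so its difference rested on NC replicate 2: without that library it was -0.07, and without NC replicate 1 it was 0.73 (edgeR adjusted p = 0.00012). RPS21 was at 373 and 258 FPKM in NC and 377 and 321 in TCN1 (0.14 ± 0.15), with the same low library.

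In the large subunit, RPL13A, which also acts in a complex that silences inflammatory messages, was at 293 and 269 FPKM in NC and 332 and 316 in TCN1. Both TCN1 libraries exceeded both NC libraries (log2 fold change 0.20 ± 0.08, edgeR adjusted p = 0.341). RPL37A, a zinc-binding protein, was at 80.6 and 55.3 FPKM in NC and 87.6 and 71.8 in TCN1 (0.23 ± 0.16). Without NC replicate 1 it was at 0.52 (edgeR adjusted p = 0.021), and without NC replicate 2 at -0.01. RPL37 was at 45.4 and 32.2 FPKM in NC and 48.5 and 39.3 in TCN1 (0.17 ± 0.15). RPL35A, one of the genes affected in Diamond-Blackfan anaemia, was at 141 and 119 FPKM in NC and 147 and 140.2 in TCN1 (0.14 ± 0.10), and its groups overlapped.

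The small subunit had no member past the unadjusted threshold on the negative side. Its most negative members of at least 1 FPKM were RPS2, RPS26, RPS7 and RPS15. RPS26, a protein of the messenger RNA exit channel, was at 112 and 82.2 FPKM in NC and 105 and 82.3 in TCN1 (log2 fold change -0.06 ± 0.15). RPS7 was at 72.6 and 61.6 FPKM in NC and 70.8 and 59.2 in TCN1 (-0.05 ± 0.11). RPS15, which is needed for export of the 40S precursor, was at 188 and 172 FPKM in NC and 173 and 179.9 in TCN1 (-0.03 ± 0.09). In these genes the groups overlapped and the spread between replicates exceeded the difference.

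The lowest members of at least 1 FPKM included core proteins of the small subunit. RPS2, at the messenger RNA entry channel, was at 1.47 and 2.17 FPKM in NC and 1.54 and 1.84 in TCN1 (log2 fold change -0.09 ± 0.28). RPS9, beside it in that channel, was at 1.38 and 1.34 FPKM in NC and 1.04 and 1.68 in TCN1 (-0.01 ± 0.27). RPS15A was at 3.67 and 2.97 FPKM in NC and 3.63 and 3.43 in TCN1 (0.08 ± 0.15). All 3 overlapped between the groups.

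The 7 members with a mean under 1 FPKM, 2 of the large and 5 of the small subunit, had at most 115 counts each in all 4 libraries together. They included RPL7A and RPL17 of the large subunit and RPS3A, RPS10, RPS18 and RPS25 of the small subunit. Of the 7, RPL7A, RPL17 and RPS10 passed the filter. RPL7A was at 0.872 and 0.617 FPKM in NC and 0.512 and 0.606 in TCN1 (log2 fold change -0.44 ± 0.40). RPL17 was at 0.817 and 0.528 FPKM in NC and 0.664 and 0.636 in TCN1 (-0.09 ± 0.38). RPS10, which is ubiquitinated when ribosomes collide, was at 1.14 and 0.707 FPKM in NC and 0.416 and 0.789 in TCN1 (-0.66 ± 0.43). RPS10 was at -1.19 when TCN1 replicate 2 was left out and at -0.25 when NC replicate 1 was. RPL7A was at -0.64 when NC replicate 2 was left out and at -0.15 when NC replicate 1 was. The standard errors of all 3 were above the members' median of 0.10.

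RPS18, RPS3A and RPS25 had too few counts for a test. RPS18 had 8 and 3 counts in NC and 5 and 9 in TCN1, and RPS3A had 7 and 2 in NC and 9 and 6 in TCN1. RPS25 had 6 and 0 counts in NC and 1 and 10 in TCN1. No difference between the groups was detectable at the depth of these rows.

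Many counts stood on pseudogene rows that carry a member's name. The files hold 558 rows of ribosomal protein pseudogenes, with 0.185% and 0.160% of counts in NC and 0.183% and 0.181% in TCN1. RPS2 had 256 counts over the 4 libraries, while pseudogene rows with its name had 24676, of which 18793 fell on RPS2P5. For RPS18 the values were 25 and 1992, for RPS3A 24 and 2774, for RPL7A 94 and 4326, and for RPL17 105 and 2155. Pseudogene counts exceeded the gene's own in 5 of the 7 members under 1 FPKM, in 3 of the 8 between 1 and 10 FPKM, and in 1 of the 68 above that (RPS28, 6834 and 16226).

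By the median, members under 1 FPKM shared more sequence with other genes of the annotation, but the ranges overlapped. A median of 37.6% of the 100-base words in the transcript of a member under 1 FPKM also occurred in another gene (14.6% to 80.6%). For members of 1 to 10 FPKM the median was 10.2% (0% to 53.5%), and for those above it was 3.26% (0% to 78.1%). In the annotation the exons of RPS10 lie under the readthrough gene RPS10-NUDT3 for 39.4% of their length, and those of RPL17 under other genes for 35.3%. Such overlap was not particular to the low rows: it was 55.5% for RPL10, with a mean of 152.8 FPKM. By the median, overlap was 13.97% for members under 1 FPKM, 8.65% for those of 1 to 10 FPKM and 1.35% for those above. The largest overlaps of RPS10 and RPL17 are with genes on the same strand, so strand would not separate those reads. The library kit does not mark strand, so reads of genes that overlap on opposite strands cannot be told apart either. How reads with several matches were counted is not stated. Levels of the rows under 1 FPKM are therefore uncertain as levels of the genes, and the cause of the low levels was not tested. RPS9, with a mean of 1.36 FPKM, shared 0% of its 100-base words and had 0 counts on pseudogene rows of its name. With pseudogene rows added, 0 members were called by edgeR, with 3 positive (RPL13A, RPS29 and RPS25) and 2 negative (RPL7L1 and RPL22L1) at an unadjusted p under 0.05. RPS25 rested on sums of 8 and 2 counts in NC and 15 and 13 in TCN1 (1.50 ± 0.63, edgeR adjusted p = 0.352). RPL7A, RPL17 and RPS2 were at 0.12, 0.11 and 0.05 on the log2 scale, each of the opposite sign to the value of its own row.

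**Figure D3:**
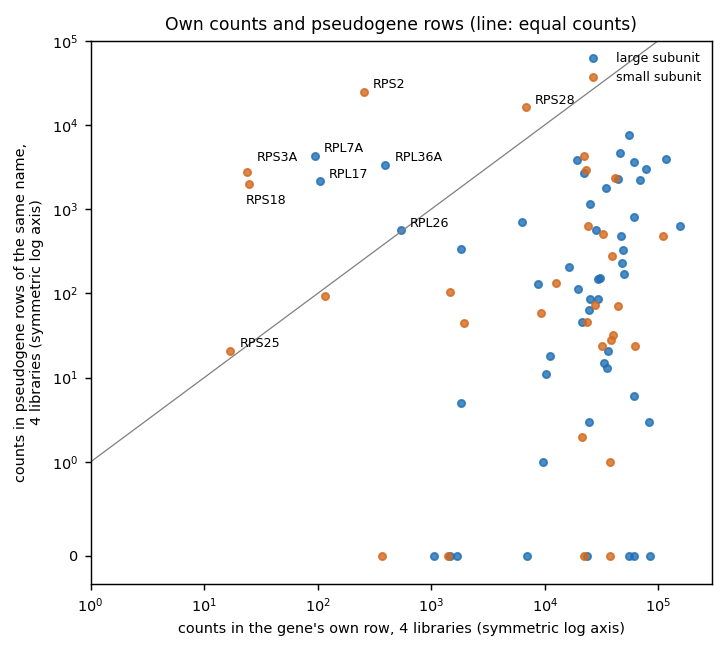
Counts of 81 genes in the gene's own row (x axis) and in pseudogene rows of the same name (y axis), summed over 4 libraries, on symmetric log axes that are linear below 1; the line marks equal counts. The named genes above the line include RPS2, with 256 and 24676 counts, and 5 of the 7 members under 1 FPKM.

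The members also differed in common between libraries of the same group. For each member of at least 1 FPKM, log2 FPKM was taken relative to its own mean over the libraries. The median of these deviations was 0.10 in NC replicate 1, -0.10 in NC replicate 2, 0.08 in TCN1 replicate 1 and -0.05 in TCN1 replicate 2, while over all genes of at least 1 FPKM it stayed between -0.01 and 0.01. NC replicate 2 was the lowest library for 51 of the 76 members (67.1%), beside 24.9% of all such genes. Replicate 2 was below replicate 1 for 68 of the 76 in NC and for 61 in TCN1. NC replicate 2 also had the lowest total count, and the part of depth in this pattern was not tested.

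**Figure D4:**
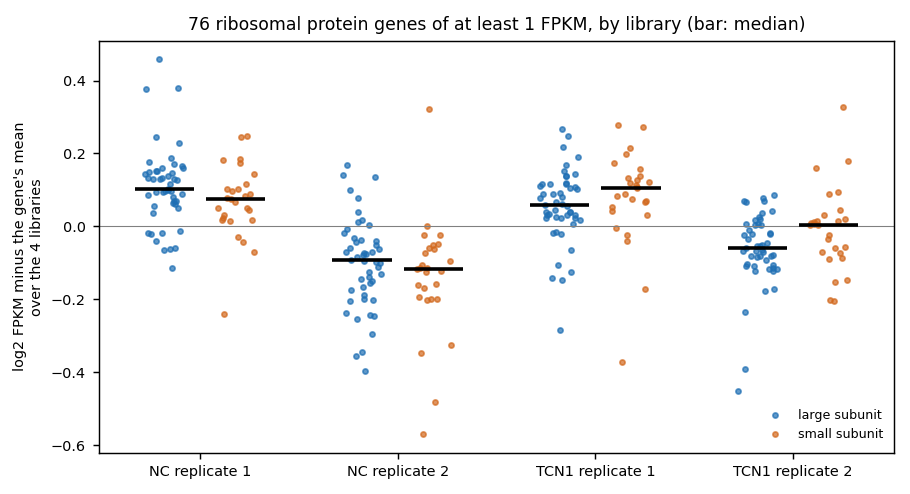
Log2 FPKM of 76 members minus each gene's mean over the 4 libraries (y axis), by library, with large subunit genes in blue, small subunit genes in orange, and bars at the medians. The members lie mostly below 0 in NC replicate 2 and mostly above 0 in replicate 1 of both groups.

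The gap between replicates was widest for the members with the shortest coding sequences. For the 10 members under 300 bp, the median ratio of NC replicate 2 to NC replicate 1 was 0.694, for the 43 from 300 to under 600 bp it was 0.851, and for the 23 of at least 600 bp it was 0.920. Other genes tested showed the same order in a smaller range, at 0.905, 0.955 and 0.998. In TCN1 the ratios of replicate 2 to replicate 1 were 0.870, 0.917 and 0.934 for members. Over the 76 members, log2 coding length and the log2 ratio had a Pearson r of 0.58 and a Spearman rho of 0.61 in NC, and 0.26 and 0.32 in TCN1, given as a description because the genes share the same libraries. The log2 fold change of TCN1 over NC had a rho of -0.36 with length (r = -0.17), and the 10 shortest members had a median of 0.16. RPS29, RPS28, RPS27, RPS21, RPL37 and RPL37A, which with RPL13A and RPL35A were the 4 highest of each subunit, are all under 300 bp.

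**Figure D5:**
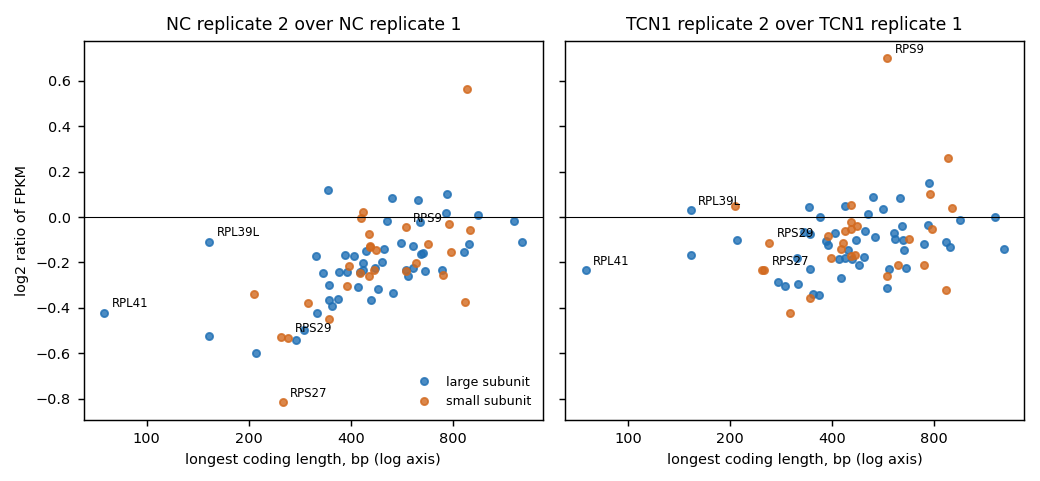
Log2 ratio of FPKM between the replicates of a group (y axis) against the longest annotated coding length (x axis, log scale) for the 76 members, NC on the left and TCN1 on the right. Short members such as RPS27, RPS29 and RPL41 lie well below 0 in NC, and less so in TCN1.

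Members with and without the pyrimidine run at their start were both centred near 0. The 44 tested members with a run had a median log2 fold change of 0.04, and the 20 without had a median of -0.0013. RPL7L1 and the windows of RPS28 and RPS29 shown above lack the run, and these genes stood on opposite sides of 0.

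Genes that work with the ribosomal proteins, other TOP messages and the mitochondrially encoded genes were taken as 8 lists. The lists were chosen with earlier results of these data known. No gene of any of them was called by edgeR with all 4 libraries and the filter on low counts. Of the genes described here, without that filter it called CDKN1A higher and ABCE1, EEF1D, EIF4EBP1, GRWD1, HEATR3, RPF2 and RRS1 lower. Of other ribosomal components, FAU (which encodes a ribosomal protein fused to a relative of ubiquitin) and the scaffold RACK1 had log2 fold changes of 0.01 and -0.04. Of 7 elongation factors tested 3 were positive and 4 negative, with a median of -0.0019. Among them EIF5A2 was at -0.43 ± 0.19 (edgeR adjusted p = 0.385) and EEF1B2 at 0.32 ± 0.28 (0.696). EEF1D, a subunit of the exchange factor for eEF1A, had the largest difference (-1.94 ± 0.63, edgeR adjusted p = 0.267). It was at 0.981 and 0.230 FPKM in NC and 0.141 and 0.188 in TCN1. NC replicate 1 was its one high library: without it the value was -0.49 (edgeR adjusted p = 0.837), and without NC replicate 2 it was -2.57 (1.0e-10). Of 13 other TOP messages 5 were positive and 8 negative, with a median of -0.03. The medians of these lists were as close to 0 as that of the ribosomal proteins. NPM1, a nucleolar chaperone, was the most separate of the TOP messages, at 101 and 88.8 FPKM in NC and 84.4 and 69.2 in TCN1 (-0.31 ± 0.11, edgeR adjusted p = 0.250).

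Genes of TOP control were more often negative than positive. Of 14 genes of LARP1 and mTORC1 control tested, 3 were positive and 11 negative, with a median log2 fold change of -0.16. The list mixes genes that promote and genes that restrain mTORC1 or translation, so the count of signs gives no direction of mTORC1 activity. The 3 positive genes, TSC1 (0.15), TSC2 (0.12) and EIF4EBP2 (0.05), all restrain it. EIF4EBP1 and AKT1S1 (-0.06) also restrain it and were negative. LARP1, which binds the TOP motif, was at 27.9 and 31.2 FPKM in NC and 23.2 and 24.6 in TCN1 (-0.31 ± 0.09, edgeR adjusted p = 0.201). EIF4EBP1, a translation repressor that mTORC1 switches off, was at 49.5 and 63.3 FPKM in NC and 39.4 and 43.2 in TCN1 (-0.45 ± 0.14, edgeR adjusted p = 0.226). In both genes every TCN1 library was below every NC library. In the whole list the groups did not overlap for 4 genes that were lower in TCN1 (background 21.0% of all genes tested). They did not overlap for 2 that were higher (background 21.7%). EIF4EBP1 passed the threshold without NC replicate 1 (-0.62, edgeR adjusted p = 0.028) and was at -0.25 (0.654) without NC replicate 2.

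The list of ribosomal protein chaperones, which also holds factors of subunit assembly that are not chaperones in the strict sense, was the lowest of the 8. Of 11 tested, 1 was positive and 10 negative, with a median log2 fold change of -0.36. For 8 of them both TCN1 libraries lay below both NC libraries (background 21.0%). These counts only describe the list, because it was chosen with earlier results of these data known. RRS1, which helps load the 5S particle, was at 16.6 and 21.3 FPKM in NC and 10.8 and 12.5 in TCN1 (-0.70 ± 0.16, edgeR adjusted p = 0.099), and DESeq2 called it, at an adjusted p of 0.040. HEATR3, which carries RPL5 into the nucleus, was at 4.75 and 4.74 FPKM in NC and 3.16 and 3.56 in TCN1 (-0.50 ± 0.12, edgeR adjusted p = 0.123). GRWD1, the chaperone of RPL3, was at 11.9 and 14.5 FPKM in NC and 8.75 and 10.3 in TCN1 (-0.47 ± 0.13, edgeR adjusted p = 0.177). RRS1 passed without NC replicate 1 (-0.88, edgeR adjusted p = 0.0012) and without TCN1 replicate 2 (-0.82, 0.0048), as did GRWD1 (-0.61, 0.018, and -0.61, 0.018), and RPF2, the partner of RRS1, passed without NC replicate 2 (-0.62, 0.028). Of their client proteins' genes, RPL5 was at -0.09 and RPL3 was at 258 and 255 FPKM in NC and 266 and 266 in TCN1 (0.05 ± 0.08).

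The list of the 5S particle and p53 had 3 positive and 3 negative genes. RRS1 and RPF2, both negative, are in this list and also counted in the chaperone list above. CDKN1A, the p53 target that halts the cell cycle, was at 48.6 and 56.8 FPKM in NC and 64.7 and 73.9 in TCN1 (log2 fold change 0.39 ± 0.11, edgeR adjusted p = 0.179). It passed the threshold without NC replicate 2 (0.52, edgeR adjusted p = 0.025) and without TCN1 replicate 1 (0.50, 0.018). All 8 tested genes of ribosome splitting and rescue were negative, with a median of -0.08. ABCE1, which splits the subunits after termination, was at 17.2 and 16.0 FPKM in NC and 13.9 and 11.4 in TCN1 (-0.40 ± 0.11, edgeR adjusted p = 0.169), and passed without TCN1 replicate 1 (-0.53, edgeR adjusted p = 0.030). Of 12 mitochondrially encoded genes tested, 11 were positive, with a median of 0.17.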

How the data were processed

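PolyA RNA of 4 HaCaT libraries (2 NC, 2 TCN1) was sequenced. Libraries were made with a NEBNext Ultra kit, per the labels' protocols, which does not mark strand. Reads were aligned with HISAT2 to GRCh38 and counted per gene with HTSeq 0.13.5, per the submitters' processing notes. Which annotation was used, and how strand and multiple matches were set, is not given in the sources used here. For each gene the authors deposited whole-number counts and FPKM, per the file headers. The deposited FPKM were used for levels, and the deposited counts for tests.

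Counts were tested with the edgeR 4.0.16 quasi-likelihood test (R 4.3.3, TMM factors, robust fit, group as the only term, filterByExpr with a minimum count of 10). P-values were adjusted by Benjamini-Hochberg over all 15113 genes tested, with a threshold of 0.05. DESeq2 1.42.0, limma 3.58.1, other scalings, filters, pseudocounts, a replicate block and each library left out were alternatives. The edgeR step was tested on simulated data. Coding lengths, overlaps and shared 100-base words came from GENCODE 29, and starts from RefSeq (GRCh38.p14). Member and list choices were made with earlier results of these data known. Values were given for called members, the 4 largest and 4 smallest differences of each subunit and the 5 highest and 5 lowest levels (all at a mean of at least 1 FPKM), members under 1 FPKM, paralogs with an L and their partners, the stalk, RPL5 and RPL11, and selected genes among the 4 smallest p of each other list. Values of 3 genes are not reported here. RPL3, KRT1 and KRT10 were named after their values were seen. Adding pseudogene rows to members was chosen after seeing the data.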

Additional observations from a re-analysis of the deposited data

How the results depend on the processing

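The labels number the libraries 1 and 2 in both groups without saying that a number marks a shared culture or batch. Deviations of same-numbered libraries had a correlation of 0.15 over 15113 genes and 0.31 over the 79 members, from 2 pairs only. With the replicate block, 9 members were called higher (RPL13A, RPL31, RPL35A, RPL37, RPLP1, RPLP2, RPS3 and RPS20 among them) and 4 lower (RPL5, RPL7L1, RPL22L1 and RPL26), beside 1216 and 1655 of all genes.

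Without a filter on low counts, edgeR called 1 member higher (RPS29) and 1 lower (RPL22L1), beside 200 and 275 of all 29209 genes. DESeq2, limma, other scalings and the filter at a mean of 1 FPKM called 0. The subunit ratio differed by -0.063 between groups from summed FPKM and by 0.00703 from median FPKM. Leaving out each library, 0 to 3 members were called higher and 0 to 1 lower, beside 102 to 195 and 103 to 124 of all 15113 genes, and the median log2 fold change ran from -0.066 to 0.11 for all members, from -0.099 to 0.078 for the large and from -0.05 to 0.14 for the small subunit. The difference in the share of counts ran from -0.11 to 0.32 percentage points and that in the subunit ratio from -0.12 to -0.011.

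Some log2 fold changes of single genes changed sign. RPS9 was at 0.00085 with the filter at a mean of 1 FPKM, and RPL35, RPS27L and FAU were at -0.015, -0.016 and -0.0043 without a filter. With pseudogene rows added, RPL17, RPL36A, RPL7A and RPS2 were at 0.11, 0.080, 0.12 and 0.054. Of 710 such alternatives for single named genes, 662 kept their direction and side of the threshold, 8 changed sign and 40 passed the threshold. The cause was not tested.

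Leaving out a library changed the sign for the following genes, given with their lowest and highest values. In the large subunit these were RPL7 (-0.15 to 0.067), RPL8 (-0.071 to 0.10), RPL11 (-0.11 to 0.21), RPL17 (-0.32 to 0.29), RPL22 (-0.099 to 0.056), RPL26L1 (-0.15 to 0.035), RPL35 (-0.10 to 0.13), RPL36AL (-0.11 to 0.30), RPL37 (-0.043 to 0.44), RPL37A (-0.0092 to 0.52), RPL39 (-0.19 to 0.33), RPL41 (-0.13 to 0.28) and RPLP2 (-0.063 to 0.29). In the small subunit these were RPS2 (-0.36 to 0.21), RPS7 (-0.17 to 0.071), RPS9 (-0.41 to 0.31), RPS12 (-0.060 to 0.14), RPS15 (-0.082 to 0.030), RPS15A (-0.047 to 0.24), RPS21 (-0.089 to 0.43), RPS26 (-0.25 to 0.18), RPS27 (-0.073 to 0.73) and RPS27L (-0.21 to 0.21). Among other genes these were FAU (-0.064 to 0.11), EEF1A2 (-0.29 to 0.015) and ASCC3 (-0.23 to 0.048).

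With 2 libraries a group, 48 of 79 members had a 95% interval inside 1.25-fold, and the members under 1 FPKM had at most 115 counts in all.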
